A study of Mus musculus with 6 samples.

Results

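The insulin-like growth factor 1 (IGF1) axis was followed through 8 genes, taken by symbol from the count files: the ligand gene Igf1, its receptor gene Igf1r and the binding protein genes Igfbp2 to Igfbp7. All 8 were among the 23420 genes of the files, and all 8 passed the filter on low counts, which left 16604 genes for testing. The tissue was the part of the mouse palate that becomes the anterior hard palate, dissected from C57BL/6 embryos at E14.5. The 3 control libraries came from Shox2Cre/+;Nkx2.5F/F embryos and the 3 mutant libraries from Shox2Cre/-;Nkx2.5F/F embryos. Both genotypes carry Cre at 1 Shox2 allele and floxed Nkx2-5 alleles, so the control has 1 intact Shox2 allele and any recombination of Nkx2-5 in Shox2-expressing cells is shared by both groups. The mutant has no intact Shox2 allele. It is not stated if a library holds RNA of 1 embryo or of several. The p-values below therefore describe variation among these 6 libraries, which may be technical.

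IGF1 is a secreted growth factor that signals through a receptor tyrosine kinase, IGF1R, to the PI3K-AKT and MAPK pathways and promotes growth and survival in most embryonic tissues, including bone and craniofacial mesenchyme. In tissue fluid most IGF is held by IGF binding proteins, which limit its access to the receptor, store it in the matrix or, after cleavage by proteases, release it. IGFBP7 binds IGFs weakly and is often set apart from the other binding proteins.

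Shox2, the gene altered in the mutant, had 88.2, 68.1 and 81.6 CPM (counts scaled to a common library size with TMM factors) in control replicates 1 to 3 and 5.30, 4.12 and 3.13 CPM in the mutants (log2 fold change -4.24, SE 0.21, edgeR adjusted p = 0.000137). Library totals ran from 81950407 to 134813429 counts in the controls and from 52668242 to 53331397 in the mutants, and the 2 ranges did not overlap. Genotype and sequencing depth cannot be told apart here. Of 10 markers of palatal mesenchyme all were detected, among them Prrx1 (1060 CPM over the controls, 844 over the mutants) and Osr2 (113 and 98.9 CPM). Their summed level was 10017 to 19637 CPM in the controls and 15065 to 16108 CPM in the mutants, with 3 of 10 called lower and none higher. Most of this sum came from Col1a1, Col1a2 and Col3a1 (control means 4441, 4944 and 3216 CPM), so it says little about the other markers. Prrx1, Prrx2, Twist1 and Pdgfra were lower in every mutant than in any control, and Col3a1 was higher. Osr1, Osr2, Col1a1, Col1a2 and Vim overlapped between the groups. Of all tested genes, 21.7% were called lower and 58.9% did not overlap, so the mesenchyme counts lay near these shares. Markers of other cells differed between the groups: 12 of 12 epithelial, 8 of 8 motile cilium and 10 of 10 macrophage markers were called higher in the mutant, and 8 of 10 osteoblast markers lower (1 did not pass and Bglap was not tested). Lower calls also held for 5 of 8 skeletal muscle, 4 of 8 erythroid, 3 of 8 nerve and glia and 3 of 8 chondrocyte markers, with none higher. Only 7 of the 8 muscle and 7 of the 8 erythroid markers were tested. Over all tested genes, 24.1% were called higher and 21.7% lower. The erythroid sum was 219 to 644 CPM in the controls and 28.7 to 40.0 CPM in the mutants, that of muscle 9.25 to 63.4 and 5.53 to 10.3 CPM, and that of nerve and glia 75.3 to 149 and 46.4 to 76.9 CPM. The part of these cells in the results below was not tested. In bulk tissue, fewer cells of a type and less RNA per cell cannot be told apart.

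Among the binding proteins 3 genes rose in the mutant palate and none fell. Igfbp2 rose 1.70-fold, Igfbp7 1.90-fold and Igfbp3 1.32-fold, while Igfbp4, Igfbp5 and Igfbp6 did not pass the test. Neither Igf1 nor Igf1r was called. Of all tested genes, 45.8% were called by edgeR (24.1% higher and 21.7% lower), so 3 called genes of 8 do not set the axis apart from the rest of the transcriptome. The median log2 fold change was 0.29 over the 8 genes and -0.0043 over all tested genes. The groups did not overlap for 5 of the 8 genes, against 58.9% of all tested genes. Without mutant replicate 2, or without mutant replicate 3, only Igfbp2 remained called higher.

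**Figure D1:**
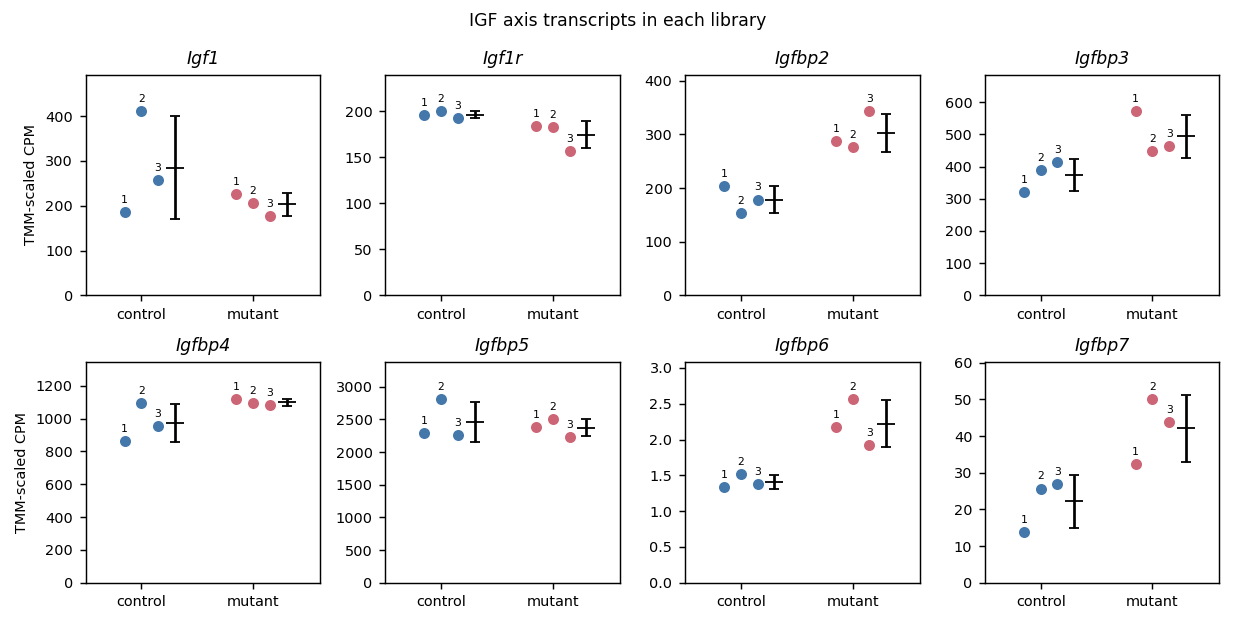
TMM-scaled CPM of the 8 genes in each library (vertical axis from 0, 1 panel per gene). Numbered points are replicates and black bars give mean and SD over 3 libraries. The groups do not overlap for Igf1r, Igfbp2, Igfbp3, Igfbp6 and Igfbp7.

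The regulatory sequence just upstream of the genes that rose is shown beside that of Igfbp5, the neighbour of Igfbp2 that was not called. Each run is the 250 bases before the RefSeq start site on build GRCm38.p6, 5′ to 3′ on the gene's own strand, and capitals mark matches to the GC box GGGCGG on either strand. All 8 genes matched the RefSeq promoter table.

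Igfbp2: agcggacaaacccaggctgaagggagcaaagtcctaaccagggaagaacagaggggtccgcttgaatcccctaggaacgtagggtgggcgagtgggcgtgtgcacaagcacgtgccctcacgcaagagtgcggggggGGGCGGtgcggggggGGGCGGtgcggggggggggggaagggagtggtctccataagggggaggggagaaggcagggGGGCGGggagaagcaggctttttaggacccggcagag
Igfbp5: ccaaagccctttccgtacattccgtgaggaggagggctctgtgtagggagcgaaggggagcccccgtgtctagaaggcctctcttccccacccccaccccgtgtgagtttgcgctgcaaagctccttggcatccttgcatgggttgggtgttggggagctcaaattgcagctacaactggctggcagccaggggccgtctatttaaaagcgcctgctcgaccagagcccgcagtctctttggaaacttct
Igfbp3: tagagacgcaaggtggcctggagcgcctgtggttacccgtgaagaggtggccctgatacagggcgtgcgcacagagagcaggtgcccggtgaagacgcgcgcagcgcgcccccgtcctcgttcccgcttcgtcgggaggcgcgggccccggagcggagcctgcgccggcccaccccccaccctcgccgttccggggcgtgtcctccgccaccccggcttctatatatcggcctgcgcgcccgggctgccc
Igfbp7: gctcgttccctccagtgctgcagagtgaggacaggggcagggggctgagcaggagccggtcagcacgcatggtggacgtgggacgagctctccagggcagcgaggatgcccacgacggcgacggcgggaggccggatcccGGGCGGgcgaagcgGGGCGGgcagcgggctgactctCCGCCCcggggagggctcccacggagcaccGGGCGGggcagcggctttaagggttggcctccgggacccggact

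These runs lie at chr1:72824230-72824479 (plus strand) for Igfbp2, chr1:72874866-72875115 (minus) for Igfbp5, chr11:7213924-7214173 (minus) for Igfbp3 and chr5:77408046-77408295 (minus) for Igfbp7. The Igfbp2 run holds 3 GC boxes and the Igfbp7 run 4, whereas the Igfbp3 and Igfbp5 runs hold none. Igf1r upstream sequence holds 2. Of 32841 upstream windows of the same length, 32.7% hold at least 1 GC box. The runs of Igfbp3 and Igfbp7 are rich in G and C (73.2% and 74.0%), that of Igfbp2 holds 67.2% and that of Igfbp5 58.8%, where the median window has 52.4%. The letters TAAT, the core that many homeodomain proteins of the class of SHOX2 bind, were searched on both strands and occur in none of the 8 runs, while 54.9% of all windows hold them. The letters TATAAA of the TATA box, searched on both strands, occur in the runs of Igfbp4 and Igfbp6 only, and 12.4% of all windows hold them. In Igfbp4 they lie on the gene's own strand and in Igfbp6 on the opposite strand, where they do not mark a TATA box of that gene. The Igf1 run (chr10:87860861-87861110, plus strand) lies inside the gene span of GENCODE M21, which begins at 87858265. It precedes an internal RefSeq start, and the sequence before the first start of Igf1 was not searched. Letters missing from these short windows say nothing about binding elsewhere.

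Igfbp2 and Igfbp5 are adjacent genes that point towards each other on chromosome 1 in GENCODE M21 on GRCm38. Igfbp2 spans 72824503 to 72852474 on the plus strand and Igfbp5 spans 72857932 to 72874884 on the minus strand, with 5457 bases between their 3′ ends. Igfbp3 (chromosome 11, 7206086 to 7213923, minus strand) faces Igfbp1 in the same way across 3539 bases. Igf1 lies on chromosome 10 (87858265 to 87937042, plus), Igf1r on 7 (67952827 to 68233668, plus), Igfbp4 on 11 (99041244 to 99054392, plus), Igfbp6 on 15 (102144362 to 102149511, plus) and Igfbp7 on 5 (77349240 to 77408041, minus). Exons of Igfbp7 share 85 bases with Polr2b on the opposite strand. How strand was used in counting is not stated, so reads in that stretch cannot be assigned between the 2 genes. No exon of the other 7 genes overlaps an exon of another annotated gene.

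Igf1, the ligand, varied more among the controls than between the groups. Its level was 186, 410 and 258 CPM in control replicates 1, 2 and 3, against 226, 206 and 177 CPM in mutant replicates 1, 2 and 3. Control replicate 1 lay inside the range of the mutants, and control replicate 2 stood above all other libraries. The means were 285 ± 115 and 203 ± 24.7 CPM (SD, n = 3 each), with a log2 fold change of -0.49 (SE 0.26, 95% interval -1.11 to 0.13, edgeR adjusted p = 0.168). The size of the difference turned on single control libraries. Without control replicate 2 it shrank to -0.13 (adjusted p = 0.563). Without control replicate 1 Igf1 was called lower at -0.73 (adjusted p = 0.0240), and without replicate 1 of both groups at -0.82 (adjusted p = 0.0144). Over all alternatives the adjusted p of Igf1 ran from 0.0144 to 0.563. The coefficient of variation of Igf1 was 40.2% in the controls and 12.2% in the mutants.

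Several other measures moved with the control libraries of Igf1. The summed level of 10 osteoblast markers was 741, 3225 and 2805 CPM in control replicates 1, 2 and 3, against 202, 332 and 393 CPM in the mutants, and that of 8 chondrocyte markers 286, 655 and 494 CPM in the controls and 158 to 177 CPM in the mutants. Control replicate 1 was the lowest control for both lists and for Igf1. This was not particular to bone and cartilage. Control replicate 1 was also lowest of the controls for the palatal mesenchyme, endothelial, macrophage and motile cilium sums. It was not lowest for the epithelial, mural, muscle, erythroid or nerve and glia sums. The mean log2 CPM of 4 Y-linked genes was 5.45, 3.09 and 4.36 in control replicates 1, 2 and 3 and 5.58 to 5.83 in the mutants. Igf1 was highest in control replicate 2, where the Y-linked genes were lowest. With the Y-linked level as a covariate the log2 fold change of Igf1 turned to 0.25 (adjusted p = 0.238). The Y-linked levels did not overlap between the groups, so this covariate and genotype cannot be fully told apart. The part of the cells behind any of these markers in the Igf1 values was not tested.

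The genes most like Igf1 in pattern were found by the root mean square difference of centred log2 CPM over the 6 libraries, among 12914 candidates. They were Plac1 (0.11), Fads3 (0.14), Fam46a (0.15), Gsc (0.15) and Lrrc16a (0.15). Gsc, a homeobox gene of craniofacial mesenchyme, had 11.5, 30.1 and 20.6 CPM in control replicates 1 to 3, against 16.1, 14.4 and 15.1 CPM in mutant replicates 1 to 3. All 5 had their highest level in control replicate 2, as Igf1 did. Lrrc16a, an actin capping regulator, was called lower (log2 fold change -0.57, SE 0.17, edgeR adjusted p = 0.0302), a call lost without control replicate 2 or 3 or mutant replicate 2 or 3, with the Y-linked covariate (-0.12) and with the replicate block (-0.54). The other 4 were not called with all libraries, but without control replicate 1 Fads3 (-0.61), Fam46a (-0.79) and Gsc (-0.75) were called lower. Without control replicate 2 the log2 fold changes shrank to -0.19 for Fads3, -0.21 for Fam46a, -0.087 for Gsc and -0.0046 for Plac1, and none was called. The measure was taken over the same 6 libraries as the fold changes and carries no test.

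**Figure D2:**
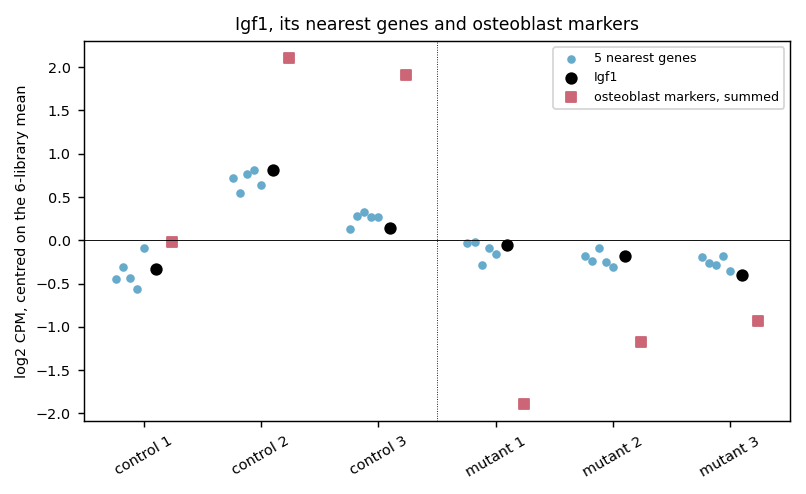
Log2 CPM of Igf1, of the 5 genes nearest to it and of the summed osteoblast markers, each centred on its mean over the 6 libraries (vertical axis), by library (horizontal axis). Igf1 and its nearest genes are highest in control replicate 2, and the osteoblast markers are high in control replicates 2 and 3.

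Igf1r, the receptor gene, had nearly equal levels in the controls. It measured 196, 200 and 192 CPM in control replicates 1 to 3, against 183, 182 and 157 CPM in mutant replicates 1 to 3. Every mutant lay below every control, but the difference was small. The log2 fold change was -0.17 (SE 0.08, 95% interval -0.35 to 0.01, edgeR adjusted p = 0.113), and the interval leaves room for a fall of 0.35 on the log2 scale. With a correction for GC content and gene length it was called lower (-0.36, adjusted p = 0.00995, range over alternatives 0.00995 to 0.352). Of the 8 genes, Igf1r had the smallest coefficient of variation in the controls (1.95%).

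Igfbp2 rose in every mutant library. IGFBP2 is a binding protein abundant in embryonic tissues that carries an integrin-binding motif. Its gene had 204, 153 and 179 CPM in control replicates 1 to 3, against 289, 277 and 343 CPM in mutant replicates 1 to 3. The lowest mutant exceeded the highest control. The means were 179 ± 25.2 and 303 ± 35.4 CPM (SD, n = 3 each). The log2 fold change was 0.76 (SE 0.13, 95% interval 0.47 to 1.06, edgeR adjusted p = 0.00282). The call held in all 19 alternatives, with log2 fold changes from 0.55 to 0.89. The epithelial marker sum, 1110 to 1850 CPM in the controls and 5907 to 6724 CPM in the mutants, moved in the same direction, and its part in the Igfbp2 rise was not tested.

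Igfbp5, the neighbour of Igfbp2 and a binding protein that attaches to bone matrix, did not move with it. Igfbp5 had 2297, 2817 and 2263 CPM in control replicates 1 to 3, against 2383, 2504 and 2237 CPM in mutant replicates 1 to 3. Mutant replicate 3 was the lowest library and control replicate 2 the highest, and the groups overlapped. The log2 fold change was -0.05 (SE 0.12, 95% interval -0.33 to 0.23, edgeR adjusted p = 0.752), and its sign turned with scaling by library size only (0.02) and without control replicate 2 (0.06). Within each library, which takes scaling out, the log2 ratio of Igfbp2 to Igfbp5 per kb was -1.79, -2.50 and -1.96 in control replicates 1 to 3 and -1.34, -1.48 and -1.0 in the mutants. The ratio was 0.81 higher in the mutant and the groups did not overlap (two-sided exact permutation p = 0.1, the smallest that 3 against 3 allows, adjusted p = 0.18 over 9 ratios chosen after the levels were seen).

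Igfbp3, whose product is the main carrier of IGF in blood and also acts in tissues, rose by a small amount. It measured 320, 389 and 414 CPM in control replicates 1 to 3, against 571, 448 and 462 CPM in mutant replicates 1 to 3. The groups did not overlap, though control replicate 3 and mutant replicate 2 lay close. The means were 375 ± 49.0 and 494 ± 67.5 CPM, a log2 fold change of 0.40 (SE 0.13, 95% interval 0.09 to 0.71, edgeR adjusted p = 0.0423). The call was lost without control replicate 1 (0.28) or 2 (0.43), and without mutant replicate 1 (0.28), 2 (0.46) or 3 (0.44), and without replicate 1 of both groups the log2 fold change was 0.17. The adjusted p over all alternatives ran from 0.0103 to 0.0996, always with a rise.

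Igfbp4, a binding protein that mostly restrains IGF and is cut by PAPPA, had 866, 1094 and 953 CPM in control replicates 1 to 3, against 1121, 1096 and 1080 CPM in mutant replicates 1 to 3. Control replicate 2 lay inside the mutant range. The log2 fold change was 0.18 (SE 0.10, 95% interval -0.06 to 0.42, edgeR adjusted p = 0.191). The mutants agreed closely, with a coefficient of variation of 1.90%, against 11.9% in the controls.

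Igfbp6, which prefers IGF2, was the least abundant of the 8. It had between 103 and 182 counts per library. Its level was 1.34, 1.52 and 1.37 CPM in control replicates 1 to 3, against 2.18, 2.57 and 1.92 CPM in mutant replicates 1 to 3. Every mutant lay above every control in CPM. The log2 fold change was 0.66 (SE 0.24, 95% interval 0.10 to 1.22, edgeR adjusted p = 0.0579), just outside the threshold. Igfbp3, at an adjusted p of 0.0423, lay just inside it. Igfbp6 was called higher by DESeq2 (0.66, adjusted p = 0.0311) and by edgeR under 4 other settings. The adjusted p ran from 0.0311 to 0.178 over all alternatives.

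Igfbp7, a protein of vessel walls and matrix, had the largest fold change of the 8. It measured 13.9, 25.7 and 27.0 CPM in control replicates 1 to 3, against 32.3, 50.2 and 43.9 CPM in mutant replicates 1 to 3. Replicate 1 was the lowest library in both groups, and the groups did not overlap. The means were 22.2 ± 7.22 and 42.1 ± 9.09 CPM, a log2 fold change of 0.92 (SE 0.27, 95% interval 0.29 to 1.56, edgeR adjusted p = 0.0265). The call was lost without mutant replicate 2 (0.78, adjusted p = 0.0926) or mutant replicate 3 (0.89, adjusted p = 0.0740), with adjusted p from 0.000496 to 0.0926 over all alternatives. The sum of 8 endothelial markers was 464 to 610 CPM in the controls and 537 to 719 CPM in the mutants, with none of the 8 called. The sum of 8 mural cell markers was 595 to 647 and 768 to 852 CPM. Of these markers Rgs5 and Notch3 were called higher and 6 were not called, a share near the 24.1% of all tested genes called higher. The part of these cells in the Igfbp7 rise was not tested.

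Divided by exon length, the transcripts spanned a wide range of levels. In the controls Igfbp5 stood first at 409 ± 51.7 CPM per kb, followed by Igfbp4 (220 ± 26.1), Igfbp3 (120 ± 15.7), Igfbp2 (96.7 ± 13.6), Igf1 (28.8 ± 11.6), Igfbp7 (18.3 ± 5.98), Igf1r (11.7 ± 0.227) and Igfbp6 (1.27 ± 0.0854). Of these neighbours Igfbp3 and Igfbp2, Igf1 and Igfbp7, and Igfbp7 and Igf1r overlapped between libraries. In the mutants Igfbp5 (395 ± 22.2 CPM per kb) and Igfbp4 (249 ± 4.72) still led. Igfbp2 (164 ± 19.2) and Igfbp3 (158 ± 21.6) overlapped, and Igfbp7 (34.8 ± 7.52) stood above Igf1 (20.5 ± 2.49) without overlap. Igf1r (10.4 ± 0.885) and Igfbp6 (2.0 ± 0.296) came last. The log2 ratio of Igf1 to Igfbp7 per kb was 0.71, 0.96 and 0.22 in control replicates 1 to 3 and -0.23, -1.0 and -1.02 in the mutants. Per kb, Igf1 thus exceeded Igfbp7 in each control and fell below it in each mutant, a difference of -1.38 (two-sided exact permutation p = 0.1, the smallest possible, adjusted p = 0.18). Which of the 2 stands higher depends on the annotated exon lengths (9904 and 1209 bases). In CPM Igf1 was above Igfbp7 in every library (177 to 226 against 32.3 to 50.2 CPM in the mutants).

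The summed level of the 6 binding protein genes was higher in each mutant than in any control. It was 804, 947 and 845 CPM per kb in control replicates 1 to 3 and 1018, 1002 and 988 CPM per kb in the mutants. Igfbp5 made up 47.2% ± 2.50 of this sum in the controls and 39.4% ± 2.01 in the mutants (SD, n = 3 each). Igfbp2 made up 11.3% ± 2.48 and 16.4% ± 2.11, and Igfbp7 2.10% ± 0.618 and 3.48% ± 0.779. The groups did not overlap for Igfbp5 and Igfbp2, while the Igfbp7 share of control replicate 3 (2.637%) and of mutant replicate 1 (2.624%) overlapped. Igfbp4 kept a share of 25.4% ± 0.894 and 24.8% ± 0.107. The log2 ratio of Igf1 to the summed binding proteins per kb was -5.42, -4.51 and -5.02 in control replicates 1 to 3 and -5.48, -5.59 and -5.79 in the mutants. The groups did not overlap, though control replicate 1 and mutant replicate 1 lay close (difference -0.64, two-sided exact permutation p = 0.1, adjusted p = 0.18). The log2 ratio of Igf1 to Igf1r per kb differed by -0.25 and overlapped (exact permutation p = 0.6, adjusted p = 0.6), turning to 0.04 without control replicate 2.

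**Figure D3:**
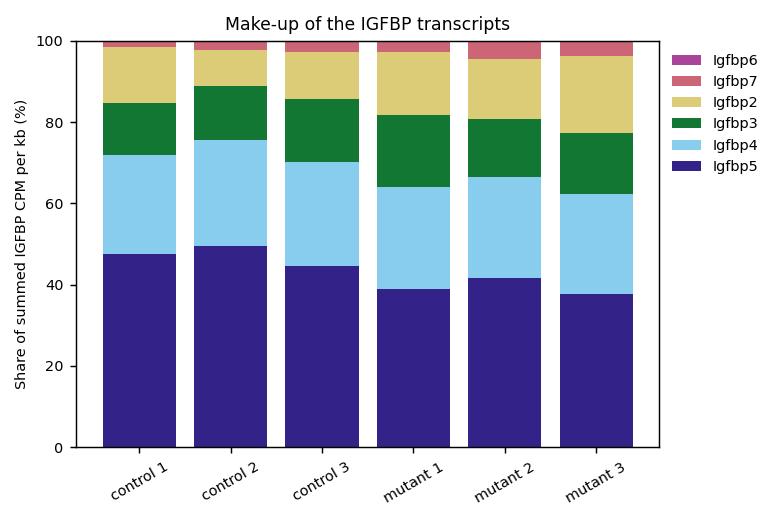
Share of each binding protein gene in the summed CPM per kb of Igfbp2 to Igfbp7 (vertical axis, percent) in each library (horizontal axis). Igfbp5 takes 47.2% on average in the controls and 39.4% in the mutants, and the shares of Igfbp2 is larger in every mutant than in any control. The share of Igfbp7 is larger on average in the mutants, with overlap.

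By the same root mean square measure, the patterns of the members over the 6 libraries differed. Igf1r and Igfbp5 were the closest pair (0.12), and Igf1 and Igfbp7 the farthest (0.77). The measure is small for any genes that vary little. Both Igf1r and Igfbp5 changed little (log2 fold change -0.17 and -0.05), so their closeness need not mean a shared pattern. The nearest member to Igfbp2 was Igfbp6 (0.28), and that to Igfbp3 was Igfbp4 (0.17). Neighbouring genes were therefore not the nearest in pattern for Igfbp2.

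Other genes of the pathway were read from 7 lists with 68 genes, of which 65 were tested. In the mutant 19 rose, 13 fell and 33 did not pass, with a median log2 fold change of 0.10. This is 32 of 65 called, where 45.8% of all tested genes were called.

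The second ligand gene, Igf2, was far more abundant than Igf1 in CPM and did not pass. Igf2 had 2860, 4348 and 3373 CPM in control replicates 1 to 3, against 2685, 3096 and 3170 CPM in mutant replicates 1 to 3 (log2 fold change -0.24, SE 0.17, edgeR adjusted p = 0.273). As for Igf1, the highest library was control replicate 2, and the sign turned with the Y-linked covariate (0.12). The insulin genes Ins1 and Ins2 had no counts in any library. Of the 6 tested genes of ligands and growth hormone signalling only Jak2, the kinase of the growth hormone receptor, was called, and it fell from 92.2 ± 3.11 to 63.5 ± 8.35 CPM (-0.54, SE 0.10, adjusted p = 0.00471).

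Receptor genes differed in small amounts or at low levels. Igf2r, which clears IGF2, had means of 322 ± 41.9 and 355 ± 14.8 CPM (log2 fold change 0.14, SE 0.10) and passed only with the Y-linked covariate (0.36). Insr, the insulin receptor, rose to 81.9 ± 5.96 CPM in the mutants from 68.1 ± 3.63 CPM in the controls (0.27, SE 0.08, edgeR adjusted p = 0.0260), a call lost without control replicate 2 or 3 or mutant replicate 2 or 3. It was also lost with the GC and length correction (0.17), the Y-linked covariate (0.17) and the replicate block (0.27). Insrr, an insulin receptor relative, fell from 1.38 ± 0.350 to 0.393 ± 0.365 CPM (-1.81, SE 0.63, adjusted p = 0.0494), a call kept without mutant replicate 2 but lost without any 1 of the other 5 libraries. The Insrr call was also lost with library size only (-1.73), upper quartile factors (-1.77), the Y-linked covariate (-1.53) and without replicate 1 of both groups (-1.64).

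Of 8 genes for proteases that cut binding proteins and for their inhibitors, 5 were called higher and none lower, where 24.1% of all tested genes were called higher. Htra1, a secreted protease that cuts IGFBPs, rose from 16.0, 25.9 and 27.8 CPM in control replicates 1 to 3 to 63.9, 48.7 and 49.3 CPM in the mutants (log2 fold change 1.21, SE 0.21, edgeR adjusted p = 0.00371). Pappa, the protease of IGFBP4 and IGFBP5, had 9.65, 7.82 and 6.78 CPM in the controls and 9.59, 24.9 and 28.4 CPM in the mutants. Mutant replicate 1 lay inside the control range, and the rise of 1.38 (SE 0.38, adjusted p = 0.0213) was not called without control replicate 2 or 3 or mutant replicate 2 or 3, with the Y-linked covariate (1.17) or with the replicate block (1.26). Stc1, an inhibitor of PAPPA, rose to 26.1 ± 2.2 CPM in the mutants from 17.8 ± 2.25 CPM in the controls (0.55, SE 0.13), while the related Stc2 had means of 2.79 and 2.14 CPM and did not pass. The lysosomal proteases Ctsb (0.64, SE 0.10) and Ctsd (0.64, SE 0.13), also high in macrophages, rose. The macrophage marker sum was 85.2 to 148 CPM in the controls and 360 to 472 CPM in the mutants, and its part in these rises was not tested.

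Of the remaining binding proteins, Igfbp1 was close to absent, at 0.0495 to 0.223 CPM in the controls, 0 CPM in mutant replicate 1 and at most 0.222 CPM in the other mutants. Igfbpl1, a protein with an IGFBP domain, rose to 4.63 ± 1.05 CPM in the mutants from 1.22 ± 0.318 CPM in the controls (log2 fold change 1.93, SE 0.29, edgeR adjusted p = 0.00183). Among 10 other secreted or membrane proteins with an IGFBP-like module 3 rose and 2 fell, near the 45.8% of all tested genes called. Nov (1.58, SE 0.25) and Ctgf (0.91, SE 0.16), matricellular proteins of the CCN family, and Crim1 (0.53, SE 0.07) rose. The 2 that fell were Kazald1, expressed in developing bone (-2.76, SE 0.61), and Wisp1, a CCN gene of osteoblast precursors (-1.09, SE 0.20), both named after their values were seen. Kazald1 had 13.6, 59.7 and 48.3 CPM in control replicates 1 to 3, against 2.83, 6.01 and 9.14 CPM in mutant replicates 1 to 3, with control replicate 1 low as for the osteoblast markers. The Kazald1 call was lost with limma-voom (adjusted p = 0.0511) and under the Y-linked covariate (adjusted p = 0.146), with adjusted p from 0.0001282 upward over the alternatives.

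Of 22 genes that relay the signal inside the cell 6 rose, 4 fell and 12 did not pass, a share close to that of all tested genes (24.1% higher and 21.7% lower). Grb10, an imprinted adaptor that restrains the receptor, dropped to 1219 ± 54.9 CPM in the mutants from 1872 ± 177 CPM (log2 fold change -0.62, SE 0.10, edgeR adjusted p = 0.00254), with every mutant below every control. The related adaptor Grb14 rose (0.69, SE 0.13), and Irs4, an insulin receptor substrate, rose to 12.3 ± 4.75 CPM in the mutants from 3.78 ± 0.361 CPM in the controls (1.70, SE 0.28). Of 13 genes of AKT and mTOR signalling, 3 rose and 5 fell, where 24.1% of all tested genes rose and 21.7% fell. Rps6kb1, the ribosomal S6 kinase, fell from 122 ± 6.09 to 76.2 ± 1.59 CPM (-0.68, SE 0.06), and Rheb, the activator of mTOR, fell by 0.36 on the log2 scale (SE 0.06). Foxo6, a forkhead factor restrained by AKT, rose by 1.28 (SE 0.19).

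**Figure D4:**
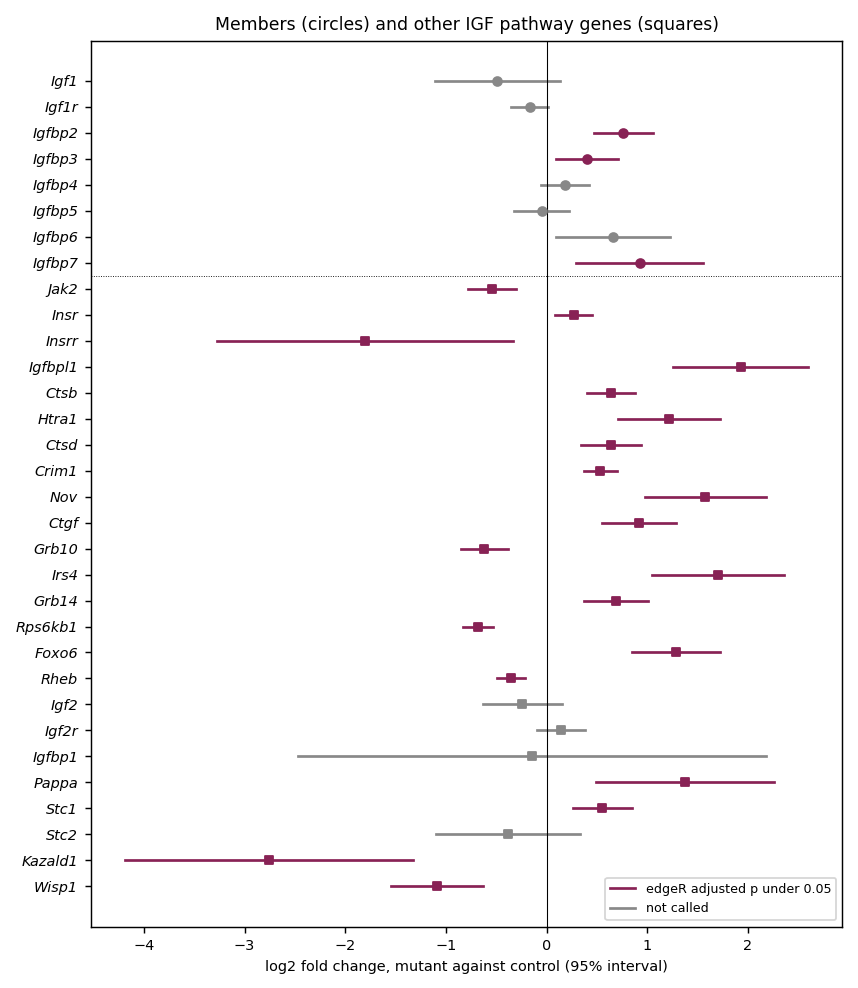
Log2 fold change of mutant against control with its 95% interval (horizontal axis) for the 8 members (circles) and for named pathway genes (squares). Called genes are dark red and the others grey. Igfbp2, Igfbp3 and Igfbp7 lie to the right of 0, and Kazald1 is farthest to the left.

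**Figure D5:**
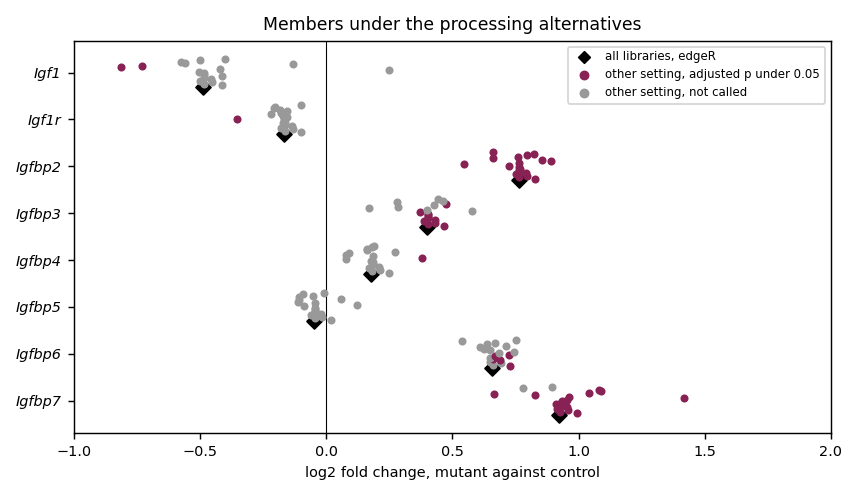
Log2 fold change of each member (horizontal axis) with all libraries (black diamonds) and under 19 other settings (dots, dark red where the adjusted p was under 0.05). Igfbp2 stayed called between 0.55 and 0.89, and Igf1 ran from -0.82 to 0.25.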

How the data were processed

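RNA sequencing of 3 control and 3 mutant palate libraries was analysed from the count files. Each deposited file gives raw counts for 1 library, by gene symbol. Per the submitters' processing notes, HISAT2, StringTie, mm9 and mm10 were used by the authors. The sources used here do not name the counter, annotation or strand setting. Groups and replicate numbers came from the titles and genotypes. Counts were fitted with edgeR 4.0.16 in R 4.3.3 (filterByExpr, TMM, quasi-likelihood F test, Benjamini-Hochberg over 16604 genes, threshold 0.05). SE was obtained from the fold change and the F statistic. Exon lengths came from GENCODE M21, which matched 98.4% of symbols. Of list genes, 4 were found under an older symbol. Ratios within libraries were compared by exact permutation. Alternatives used DESeq2 1.42.0, limma 3.58.1, other scalings and filters, halved or thinned counts, covariates and left-out libraries.

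Counts from 5 to 50 were even for 63.6% to 64.5% of genes in the controls and for 99.7%, 73.0% and 65.9% in mutant replicates 1, 2 and 3. No source used here gives a reason for the difference of mutant replicate 1. Tested on simulated data of 16604 genes in 5 draws, the mutant against control fit called 21.2% of the genes given a 1.5-fold change. It called 58.4% of those given 2-fold and 85.6% of those given 4-fold, and 6.8% of its calls were unchanged genes. Over the 5 draws only 500, 250 and 250 genes were given these changes, whereas 45.8% of all tested genes were called in the data. With so few changed genes the Benjamini-Hochberg cut is stricter, so these rates need not hold for the data. The members and lists were chosen with earlier results of these data known. Named genes are the members, Shox2, up to 3 called genes with the smallest p per pathway list, Igf2, Igf2r, Insr, Igfbp1, Pappa, Stc1 and Stc2 as values, the 5 genes nearest to Igf1, and up to 2 markers per list. Beyond this rule all palatal mesenchyme markers are named, as are Ins1, Ins2 and Polr2b. Other genes outside it are marked in the text.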

Additional observations from a re-analysis of the deposited data

How the results depend on the processing

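Igfbp2 was called higher under all 19 alternatives. Leaving out 1 library at a time, between 1 and 3 members were called higher and between 0 and 1 lower, and log2 fold changes ran from -0.73 to -0.13 for Igf1, from 0.28 to 0.48 for Igfbp3, from -0.11 to 0.0568 (without control replicate 2) for Igfbp5 and from 0.67 to 1.09 for Igfbp7. For Igfbp1, at few counts, they ran from -0.69 to 0.44, and for the log2 ratio of Igf1 to Igf1r they ran from -0.518 to 0.0399, the latter without control replicate 2. Without replicate 1 of both groups 1 member (Igf1, -0.82) was called lower, Igfbp3 fell to 0.17 and was not called, and Igfbp1 turned to 0.76. The GC and length correction called 1 member lower (Igf1r, -0.36). With the Y-linked covariate 5019 genes were called instead of 7606, and the genes called lower numbered 2309 instead of 3607 over all genes and 7 instead of 13 in the pathway lists. Under it Igfbp4 was called (0.38), Igfbp3 was not (0.58), and the sign turned for Igf1 (0.25), Igfbp5 (0.12), Igf2 (0.12), Plac1 (0.41), Fads3 (0.15), Fam46a (0.24) and Gsc (0.45). With library size only, Igfbp5 turned to 0.0201 and Igfbp6 was called (0.73). Igfbp6 was also called with the filter of 1 CPM in 3 libraries (0.69), by DESeq2 (0.66), with halved counts (0.67) and with thinned counts (0.72). As the Y-linked levels did not overlap between the groups, results with that covariate cannot be fully separated from genotype. Causes were not tested.

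The labels state no pairing by replicate number. Deviations of same-numbered libraries from their group means correlated at 0.11, 0.12 and 0.068 across genes. Control replicates 1 and 2 correlated best with the mutant library of the same number, and control replicate 3 with mutant replicate 2. A pairing was not tested. With a replicate block 7022 genes were called instead of 7606, and Igfbp3 was not called (0.40, edgeR adjusted p = 0.0867). Igfbp2 and Igfbp7 stayed called, and the SE of Igfbp7 fell from 0.27 to 0.12 (0.96, edgeR adjusted p = 0.0034). With 3 libraries a group, members that did not pass may still differ within their intervals.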
